A study of Mus musculus with 8 samples.

Results

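A group of 10 transcription factors that set the fate of CD8 T cells were examined in RNA from tumor-infiltrating cells of mice given tacrolimus or vehicle. They were chosen by name for their known roles in progenitor, effector and exhausted T cells, with earlier results of these data known. All 10 were found among the 55487 genes of the deposited tables, and 9 passed the minimum for testing. C57BL/6 mice carried subcutaneous B16F10 tumors, a transplanted line of pigmented mouse melanoma. When tumors had reached about 50 mm3, 7 to 9 days after injection, 4 mice received tacrolimus (FK506) intraperitoneally at 3 mg/kg every 5 days and 4 received vehicle by the same route and schedule. At 6 days from the onset of treatment the tumors were removed, and cells sorted as CD8+ were sequenced, with 1 library per mouse. The age and sex of the mice are not given in the sources used here.

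Tacrolimus binds the immunophilin FKBP12, and the complex blocks calcineurin, the phosphatase that sends NFAT factors to the nucleus after T cell receptor signaling. In tumors, CD8 T cells that meet antigen for long periods divide into progenitor-like cells, which keep TCF1 (encoded by Tcf7), and cells with effector or exhausted programs, in which T-bet (Tbx21), Eomes, Blimp1 (Prdm1) and Tox act. Id2 and Id3 hold back E proteins, and Bach2 represses effector genes. Several of these factors are also made by other cells: Id2 and Id3 by many tissues, Tcf7 and Lef1 wherever Wnt signaling works through them.

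The upstream sequences of Lef1, Eomes, Tbx21 and Prdm1 are shown because these factors were at or near 0 in the library with the least T cell transcript. RefSeq start sites of GRCm38.p6 were available for 9 members, with Tox missing from the table. Each line gives the 250 bases before a start site, 5′ to 3′ on the gene's strand, at chr3:131110047-131110296 (plus strand), chr9:118477939-118478188 (plus), chr11:97115332-97115581 (minus) and chr10:44458749-44458998 (minus). None of these bases lies in an exon of a protein-coding gene in GENCODE M21. The Prdm1 stretch lies inside the annotated span of the gene, before an internal start site. Capitals mark GGAAA on either strand, the core that NFAT factors bind, and CANNTG, the E-box core bound by E proteins.
Lef1: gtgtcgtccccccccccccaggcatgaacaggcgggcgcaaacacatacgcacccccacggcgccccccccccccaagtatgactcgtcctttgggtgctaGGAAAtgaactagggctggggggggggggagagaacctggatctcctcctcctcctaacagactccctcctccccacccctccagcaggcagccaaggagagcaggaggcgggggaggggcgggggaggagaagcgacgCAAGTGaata
Eomes: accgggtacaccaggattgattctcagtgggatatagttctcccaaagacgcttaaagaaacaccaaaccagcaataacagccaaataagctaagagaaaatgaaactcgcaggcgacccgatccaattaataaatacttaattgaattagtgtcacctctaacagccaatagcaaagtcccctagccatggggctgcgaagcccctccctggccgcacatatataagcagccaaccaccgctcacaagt
Tbx21: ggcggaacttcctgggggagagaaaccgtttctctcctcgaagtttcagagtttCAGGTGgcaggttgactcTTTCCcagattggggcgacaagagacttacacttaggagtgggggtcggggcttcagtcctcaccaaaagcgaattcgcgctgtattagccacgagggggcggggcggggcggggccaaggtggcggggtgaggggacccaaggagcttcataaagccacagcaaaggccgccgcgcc
Prdm1: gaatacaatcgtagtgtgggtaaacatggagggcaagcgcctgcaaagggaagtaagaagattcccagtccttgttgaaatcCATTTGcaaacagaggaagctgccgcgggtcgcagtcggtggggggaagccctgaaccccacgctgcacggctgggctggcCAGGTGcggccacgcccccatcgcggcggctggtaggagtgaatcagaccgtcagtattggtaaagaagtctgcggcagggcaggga
The Lef1 and Tbx21 stretches hold 1 GGAAA each, while those of Eomes and Prdm1 hold none. The Prdm1 stretch holds 2 E-box cores, Lef1 and Tbx21 hold 1 each, and Eomes none. Lef1 has other start sites that are not shown, and the stretch at chr3:131112541-131112790 holds 3 GGAAA and 2 E-box cores. No match of 1 motif overlapped a match of the other. Over all 32851 RefSeq windows of this length, 55.6% hold GGAAA and 66.2% hold CANNTG. Among the 17 windows of the members, 9 hold GGAAA and 12 hold CANNTG. Windows of nearby start sites overlap, as for Lef1 and Tox2, so the same match can be counted again. A match describes these letters and is not evidence of binding.

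A pair of libraries stood apart. In the first principal component over all genes tested, vehicle replicate 1 held 63.9% of the sum of squares and tacrolimus replicate 2 held 21.6%. Melanoma transcripts were abundant in every library, with Pmel, a melanosome protein, between 4223 and 7772 FPKM (fragments counted per length of a transcript and relative to the library size). Cd8a, a chain of the coreceptor used for the sort, lay between 3.40 and 33.2 FPKM with tacrolimus and between 36.9 and 153 with vehicle. These ranges did not overlap, where 10.2% of all genes tested were lower without overlap. Cd3e, which encodes the CD3 epsilon subunit of T cells, held 46.0, 6.53, 18.2 and 19.1 FPKM in tacrolimus replicates 1 to 4 and 145.9, 40.8, 61.6 and 74.7 in vehicle replicates 1 to 4. All 15 T cell markers had a lower mean with tacrolimus, and their summed level ran from 66.0 to 487 FPKM with tacrolimus and from 481 to 1963 with vehicle. All 12 macrophage and monocyte markers also had a lower mean (sums of 232 to 542 and 414 to 1757 FPKM). Of 9 melanoma markers 6 had a lower mean (22508 to 27598 and 18906 to 34043 FPKM), as did 3 of 6 natural killer markers (54.7 to 119 and 97.5 to 410 FPKM). Most of the natural killer sum was Tyrobp (38.05 to 100 and 84.9 to 380 FPKM). Klrb1c averaged 14.2 FPKM with tacrolimus and 12.3 with vehicle, and Ncr1 was at most 0.59 FPKM in any library. B cell markers were scarce (sums of 0.82 to 5.84 FPKM), with Pax5 under 0.20 in every library. Lower means were also found for 5 of 5 CD4 and regulatory T cell, 6 of 6 dendritic cell, 4 of 4 neutrophil and 5 of 9 fibroblast and endothelial markers. Over all genes tested, 75.7% had a lower mean on the log2(FPKM + 1) scale, while these markers were counted by mean FPKM. Some were scarce: Cd40lg, Il2ra and Clec9a each reached 1 FPKM in only 1 library. In bulk RNA, fewer cells of a type and less RNA per cell cannot be told apart. The part of these other cell types in the results below was not tested.

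All 9 tested members had a lower mean with tacrolimus on the log2(FPKM + 1) scale, where 75.7% of all genes tested had a lower and 24.3% a higher mean. After median-of-ratios scaling all 9 still had a lower mean, where 49.2% of all genes did. None reached the adjusted threshold of 0.05 (limma, Benjamini-Hochberg), and neither did any of the 13032 genes (0% called). At an unadjusted p under 0.05, 6 of the 9 were lower (Tcf7, Lef1, Tox, Eomes, Tbx21 and Prdm1), against 15.8% of all genes, and none was higher, against 1.6%. This count depended on few libraries and on the scaling. It was 2 without tacrolimus replicate 2, where 12.2% of all genes were lower at that p. Without both that library and vehicle replicate 1 it was 1 (16% of all genes). Without vehicle replicate 2 it rose to 7 (12.8% of all genes), as it did without vehicle replicate 4 (11.9%). It was 3 after median-of-ratios (5.64%) or upper-quartile scaling (5.97%), and 1 with variances not pooled across genes (15%). A count of 1 in 9 is near the share over all genes, so under those settings the count does not set the members apart. Tcf7 was counted under each of these settings. The size of the differences of scarce members also moved with the pseudocount: with 0.1 and with 5 in place of 1, Lef1 differed by -2.53 and -0.51, Tbx21 by -2.30 and -0.53, Prdm1 by -1.91 and -0.48, and Eomes by -1.83 and -0.54. With a pseudocount of 5, Tox differed by -0.79 and Id3 by -0.18. The groups did not overlap for 2 of the 9, Tcf7 and Id2, where 10.2% of all genes were lower without overlap.

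**Figure D1:**
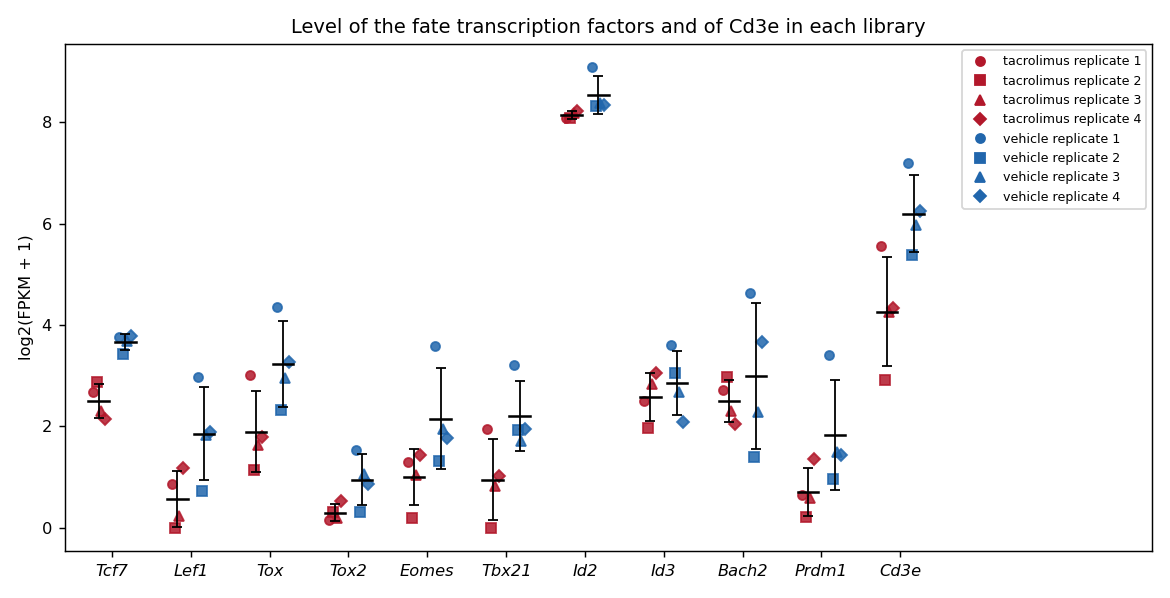
Level of each member and of Cd3e in the 8 libraries, as log2(FPKM + 1) on the vertical axis. Red symbols are tacrolimus and blue symbols vehicle libraries, with 1 symbol shape per replicate number, and black bars give the mean and SD of 4 libraries. Tcf7 is separated between the groups, Id2 lies far above the other members, and vehicle replicate 1 is the highest library for 9 of the 10 members.

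Tcf7 encodes TCF1, the factor of naive and progenitor T cells (ENSMUSG00000000782; GRCm38 chromosome 11, 52252371 to 52283014). It was at 5.41, 6.33, 3.92 and 3.41 FPKM in tacrolimus replicates 1 to 4 and at 12.5, 9.77, 11.8 and 12.7 FPKM in vehicle replicates 1 to 4. Every tacrolimus library lay below every vehicle library. Means were 4.77 ± 1.34 and 11.7 ± 1.35 FPKM (SD, n = 4 each), which on the log2 scale differed by -1.16 (SE 0.20, 95% interval -1.61 to -0.71). The adjusted p was 0.147 in limma over all genes, and the exact permutation p was 0.0286, the smallest that 4 against 4 allows. Among the members Tcf7 had the smallest spread within the vehicle group relative to its difference, and vehicle replicate 1, which was the highest for all the others, was second here. The separation held after median-of-ratios scaling (at most 6.59 with tacrolimus and at least 7.996 with vehicle) and the other 2 scalings tried. Tcf7 was highest among the tacrolimus libraries in replicate 2, where Cd3e was lowest.

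Lef1, a factor of the same family as Tcf7 (ENSMUSG00000027985; chromosome 3, 131110471 to 131224356), was scarce. It was at 0.82, 0, 0.18 and 1.27 FPKM in tacrolimus replicates 1 to 4 and at 6.86, 0.66, 2.57 and 2.71 in vehicle replicates 1 to 4. The groups overlapped through vehicle replicate 2, and the log2 difference was -1.29 (SE 0.45, limma adjusted p = 0.218; exact permutation p = 0.0857). Lef1 passed the minimum of 1 FPKM in exactly 4 libraries, 3 of them vehicle libraries. An antisense transcript, Gm43352, overlaps 1208 exonic bases of Lef1 and was at 0.02 to 0.58 FPKM. Whether the counting used strand is not given in the sources used here. A share of the Lef1 signal, of unknown size, could therefore not be told apart from that transcript.

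Tox, an HMG-box factor of exhausted T cells (ENSMUSG00000041272; chromosome 4, 6686353 to 6991557), was at 7.13, 1.21, 2.12 and 2.44 FPKM in tacrolimus replicates 1 to 4. In vehicle replicates 1 to 4 it was at 19.5, 4.01, 6.73 and 8.68 FPKM. Tacrolimus replicate 1 lay above vehicle replicates 2 and 3, and the other 3 tacrolimus libraries lay below all vehicle libraries. The log2 difference was -1.33 (SE 0.48, 95% interval -2.39 to -0.27, limma adjusted p = 0.223), with an exact permutation p of 0.0857. Without vehicle replicate 1 the vehicle mean of Tox was 6.47 FPKM in place of 9.73, and without tacrolimus replicate 1 the tacrolimus mean was 1.92 in place of 3.23. Its relative Tox2 (ENSMUSG00000074607; chromosome 2, 163203125 to 163324170) did not pass the minimum. Tox2 was at 0.11, 0.25, 0.15 and 0.44 FPKM with tacrolimus and at 1.91, 0.25, 1.09 and 0.83 with vehicle. An estimated 5 to 87 fragments per library stood behind these Tox2 values (exact permutation p = 0.0857, log2 difference -0.65).

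Eomes, a T-box factor of memory and exhausted CD8 T cells (ENSMUSG00000032446; chromosome 9, 118478212 to 118486132), was at 1.47, 0.15, 1.06 and 1.71 FPKM in tacrolimus replicates 1 to 4. The vehicle libraries held 11.01, 1.5, 2.84 and 2.43 FPKM in the same order of replicates. Only tacrolimus replicate 4 reached into the vehicle range, and vehicle replicate 1 was 3.88 times the next highest library. The log2 difference was -1.16 (SE 0.47, limma adjusted p = 0.254; exact permutation p = 0.0571). Without vehicle replicate 1 the difference of Eomes was -0.68. The antisense transcript Gm33460 overlaps 118 exonic bases of Eomes and lay between 0 and 2.08 FPKM.

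Tbx21 encodes T-bet, the T-box factor of effector cells (ENSMUSG00000001444; chromosome 11, 97098071 to 97115331). It was at 2.88, 0, 0.78 and 1.02 FPKM in tacrolimus replicates 1 to 4 and at 8.33, 2.81, 2.26 and 2.87 in vehicle replicates 1 to 4. Tacrolimus replicate 1 was level with vehicle replicates 2 and 4 and above replicate 3, and the other tacrolimus libraries lay below the vehicle range. The log2 difference was -1.25 (SE 0.44, limma adjusted p = 0.222; exact permutation p = 0.114). The ratio of Eomes to Tbx21 ran from 0.51 to 1.68 in the 3 tacrolimus libraries with both genes above 0 and from 0.53 to 1.32 in the vehicle libraries, so the balance of the T-box pair overlapped between the groups.

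Prdm1 encodes Blimp1, a repressor of effector and terminally differentiated cells (ENSMUSG00000038151; chromosome 10, 44437177 to 44528501). It was at 0.57, 0.16, 0.51 and 1.56 FPKM in tacrolimus replicates 1 to 4 and at 9.61, 0.94, 1.82 and 1.72 in vehicle replicates 1 to 4. Like Lef1, Prdm1 passed the minimum in exactly 4 libraries, 3 of them vehicle libraries. Vehicle replicate 1 held 5.28 times the level of the next library, and without it the vehicle mean was 1.49 FPKM in place of 3.52. The log2 difference was -1.12 (SE 0.49, limma adjusted p = 0.276; exact permutation p = 0.0571), and without vehicle replicate 1 it was -0.59. Bach2, a repressor that opposes Blimp1 and keeps cells from effector differentiation (ENSMUSG00000040270; chromosome 4, 32238804 to 32586108), behaved differently from library to library. It was at 5.56, 6.82, 3.95 and 3.11 FPKM with tacrolimus and at 23.8, 1.63, 3.90 and 11.7 with vehicle, so the vehicle libraries held both the highest and the lowest value. The Bach2 difference was -0.49 (SE 0.60, 95% interval -1.82 to 0.84, limma adjusted p = 0.674), and it turned to 0.056 without vehicle replicate 1.

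Id2, an inhibitor of E proteins in effector cells and in many other cell types (ENSMUSG00000020644; chromosome 12, 25093799 to 25097140), was by far the most abundant member. It was at 269, 270, 290 and 297 FPKM in tacrolimus replicates 1 to 4 and at 543, 319, 330 and 321.1 in vehicle replicates 1 to 4. The groups did not overlap, with means of 282 ± 14.2 and 379 ± 110 FPKM (SD, n = 4 each), which differed on the log2 scale by -0.39 (SE 0.18, limma adjusted p = 0.296; exact permutation p = 0.0286). This separation was lost after median-of-ratios scaling (281 to 338 and 261 to 542) and after upper-quartile scaling, where the Id2 difference was -0.16 for both. Without vehicle replicate 1 the vehicle mean of Id2 was 324 FPKM. Tacrolimus replicate 2, with 6.53 FPKM of Cd3e, held 270 FPKM of Id2, and tacrolimus replicate 1, with 46.0 of Cd3e, held 269. Id3, the related inhibitor of naive and memory-precursor cells (ENSMUSG00000007872; chromosome 4, 136143497 to 136145755), was at 4.63, 2.90, 6.12 and 7.30 FPKM with tacrolimus and at 11.1, 7.30, 5.40 and 3.25 with vehicle. The Id3 groups overlapped widely (difference -0.27, SE 0.34, 95% interval -1.03 to 0.49, limma adjusted p = 0.687).

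**Figure D2:**
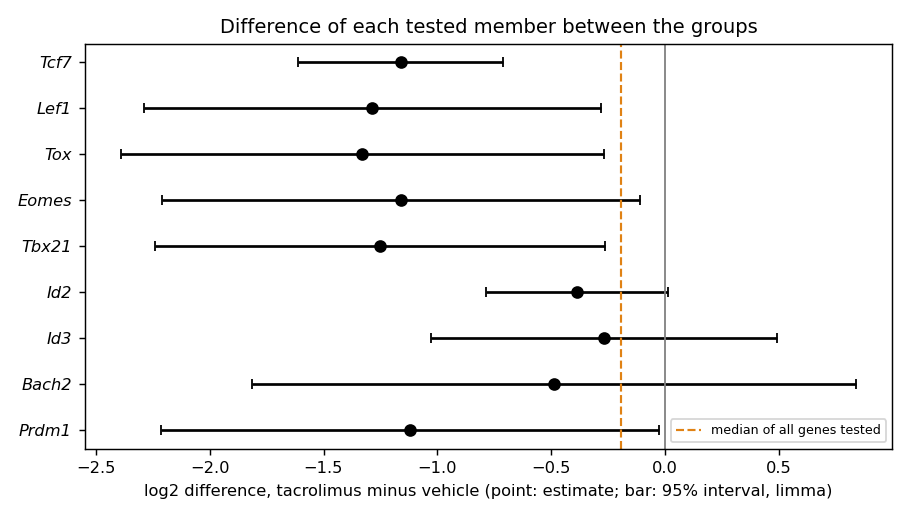
Log2 difference of each tested member, tacrolimus minus vehicle, on the horizontal axis. Points are limma estimates from 8 libraries, bars are 95% intervals not adjusted for the number of genes, and the dashed line marks the median of all genes tested at -0.19. Tcf7 has the narrowest interval among the members near -1.2, and those of Id2, Id3 and Bach2 include 0.

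The order of levels, which FPKM allows because it is per length, was led by Id2 in both groups. Id2 did not overlap with the next member in either group. In the vehicle group the order was then Tcf7, Bach2, Tox, Id3, Eomes, Tbx21, Prdm1, Lef1 and Tox2, and in the tacrolimus group Id3, Bach2, Tcf7, Tox, Tbx21, Eomes, Prdm1, Lef1 and Tox2. From the second place down, each member overlapped with the next over the 4 libraries of a group. Tcf7 thus stood in place 2 with vehicle and in place 4 with tacrolimus, next to genes from which it did not differ beyond the spread. Id2 ranked 229 to 428 among all genes in the 8 libraries, while Tcf7 ranked 6244 to 10281. The ratio of Tcf7 to Tox, which sets a progenitor factor against an exhaustion factor without a reference gene, was 0.76, 5.23, 1.85 and 1.4 in tacrolimus replicates 1 to 4. In vehicle replicates 1 to 4 it was 0.64, 2.44, 1.75 and 1.46, and the groups overlapped.

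A second comparison set the members against Cd3e, to ask how they differed per unit of a T cell transcript. Cd3e itself differed by -1.93 on the log2 scale (SE 0.52, limma adjusted p = 0.193; exact permutation p = 0.0571). Tox stayed nearest to a fixed proportion of Cd3e. It was 15.5%, 18.5%, 11.7% and 12.8% of the Cd3e FPKM in tacrolimus replicates 1 to 4 and 13.4%, 9.82%, 10.9% and 11.6% in vehicle replicates 1 to 4. The mean proportion of Tox was 14.6 ± 3.06% with tacrolimus and 11.4 ± 1.49% with vehicle (SD, n = 4 each), and the ranges overlapped. Without a pseudocount the difference of log2 ratios was 0.34 (exact permutation p = 0.114). With the pseudocount of 1, which lifts the ratio of a scarce gene most where Cd3e is low, it was 0.61, the groups did not overlap and the exact permutation p was 0.0286. That result for Tox rests on the pseudocount.

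Eomes, Tbx21, Prdm1, Lef1 and Tox2 had overlapping proportions of Cd3e in the 2 groups. Eomes was 3.19%, 2.30%, 5.84% and 8.94% of Cd3e in tacrolimus replicates 1 to 4 and 7.54%, 3.67%, 4.61% and 3.25% in vehicle replicates 1 to 4. The Eomes difference of log2 ratios without a pseudocount was -0.03 (exact permutation p = 0.971). Tbx21 was between 0 and 6.25% with tacrolimus and between 3.67 and 6.88% with vehicle. Prdm1 lay between 1.238 and 8.16% and between 2.30 and 6.58% (log2 ratio difference without a pseudocount -0.14, exact permutation p = 0.943). Lef1 lay between 0 and 6.64% and between 1.62 and 4.70%, and Tox2 between 0.24 and 3.83% and between 0.61 and 1.77%. These p values do not show that the proportions were equal, since the spread within a group was several-fold.

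Tcf7, Bach2, Id3 and Id2 had higher mean proportions of Cd3e with tacrolimus, and their ranges also overlapped. Tcf7 was 11.7%, 96.9%, 21.6% and 17.8% of the Cd3e FPKM in tacrolimus replicates 1 to 4 and 8.58%, 23.9%, 19.1% and 17.02% in vehicle replicates 1 to 4. Tacrolimus replicate 2 alone lay above the vehicle range. The Tcf7 difference of log2 ratios was 0.68 without a pseudocount (exact permutation p = 0.457), and with the pseudocount it turned from 0.77 to -0.10 when tacrolimus replicate 2 and vehicle replicate 1 were left out. Bach2 was 12.1%, 104%, 21.8% and 16.3% of Cd3e with tacrolimus and 16.3%, 3.99%, 6.33% and 15.6% with vehicle (log2 ratio difference without a pseudocount 1.53, exact permutation p = 0.143). Id3 was 10.1%, 44.4%, 33.7% and 38.2% with tacrolimus and 7.62%, 17.9%, 8.76% and 4.35% with vehicle, and 3 of 4 tacrolimus libraries lay above all vehicle libraries (1.70, exact permutation p = 0.0571). Id2 ran from 585 to 4132% of Cd3e with tacrolimus and from 372 to 781% with vehicle (1.62, exact permutation p = 0.0571).

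The limma fit of all genes relative to Cd3e cannot single out a member. Subtracting Cd3e made 99.8% of 13031 genes higher with tacrolimus, with a median difference of 1.74. All genes then share the spread of 1 reference gene, and the fit pooled the variance completely (infinite prior degrees of freedom against 6 residual), so for the members its p values can be larger or smaller than without pooling. It called 740 genes higher (5.68%) and 0 lower (0%), with no member among them. At an unadjusted p under 0.05 it held 79.1% of genes higher and 1 of the 9 members, Id3. Groups did not overlap, with tacrolimus higher, for 12% of genes and for 1 of 9 members, Tox. The smallest adjusted p of a member was 0.0523, for Id3 (difference 1.67, SE 0.77). With variances not pooled, 0 genes were called, and 4 of the 9 members (Tox, Tbx21, Id2 and Id3) were higher at an unadjusted p under 0.05, where 42.6% of all genes were. For Tox the p was 0.0260 without pooling and 0.429 with it, and for Id3 0.0335 and 0.0299. All 9 members had a difference below the median of 1.74.

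**Figure D3:**
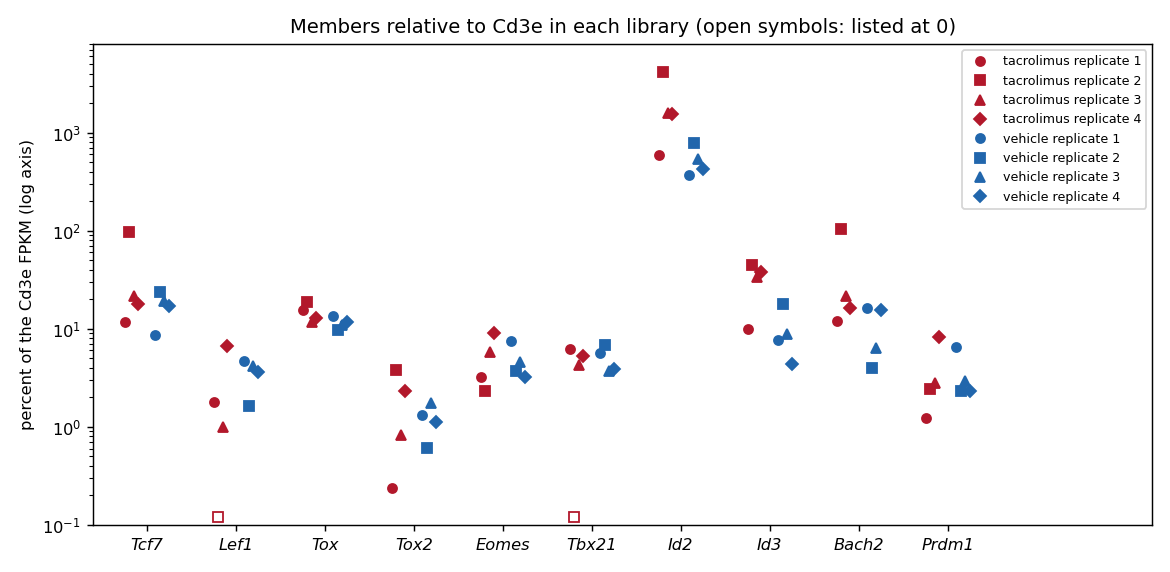
Level of each member as a percent of the Cd3e FPKM in the same library, on a log axis. Red symbols are tacrolimus and blue symbols vehicle libraries, with open symbols at the foot for values of 0. Tox keeps between 9.82 and 18.5% in all 8 libraries, whereas Tcf7 and Bach2 reach 96.9 and 104% in tacrolimus replicate 2.

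Across the 8 libraries, members differed in how closely they followed Cd3e. Tox followed it most closely, with a Pearson r of 0.97 on the log2(FPKM + 1) scale (exact permutation p = 1.49e-04, adjusted p = 0.0588 over all 13031 genes) and a Spearman rho of 0.98 (exact permutation p = 3.97e-04, adjusted p = 0.0462). By r no gene passed adjustment (0% of 13031). How many genes passed by rho was not counted, so the rho cannot set Tox apart from other genes. Without vehicle replicate 1 and tacrolimus replicate 2, the 2 libraries farthest from the median of Cd3e, r for Tox was 0.96. Tbx21 had an r of 0.97 (exact permutation p = 6.45e-04, adjusted p = 0.0815) and a rho of 0.88 (exact permutation p = 0.00724, adjusted p = 0.204), with r at 0.89 without those libraries. The r was 0.89 for Eomes and 0.89 for Lef1, 0.79 for Prdm1, 0.74 for Id2 and 0.71 for Tcf7, and the corresponding rho was 0.88, 0.93, 0.88, 0.74 and 0.76. Their exact permutation p values for r were 0.00278, 0.00367, 0.0184, 0.0342 and 0.0480 and for rho 0.00724, 0.00223, 0.00724, 0.0458 and 0.0368. None passed adjustment over all genes (adjusted p of 0.109 to 0.433). Bach2 (r 0.49 and rho 0.43, exact permutation p = 0.222 and 0.299, adjusted p = 0.755 and 0.753) and Id3 (r 0.47 and rho 0.28, exact permutation p = 0.240 and 0.508, adjusted p = 0.769 and 0.893) did not pass an unadjusted 0.05.

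Leaving out those 2 libraries changed the weaker relations. The r became 0.75 for Eomes, 0.73 for Lef1, 0.48 for Id2, 0.44 for Prdm1 and 0.50 for Bach2, it became 0.91 for Tcf7, and for Id3 it turned to -0.71. The r of Prdm1 and Id2 with Cd3e therefore depended on the outer libraries, and rho was not computed without them. All genes tested had a median r of 0.13 with Cd3e, and 2.03% had an r over 0.9. Since both Cd3e and the members had lower means with tacrolimus, these relations hold the group difference as well, and 4 libraries in a group are too few for a value within groups.

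**Figure D4:**
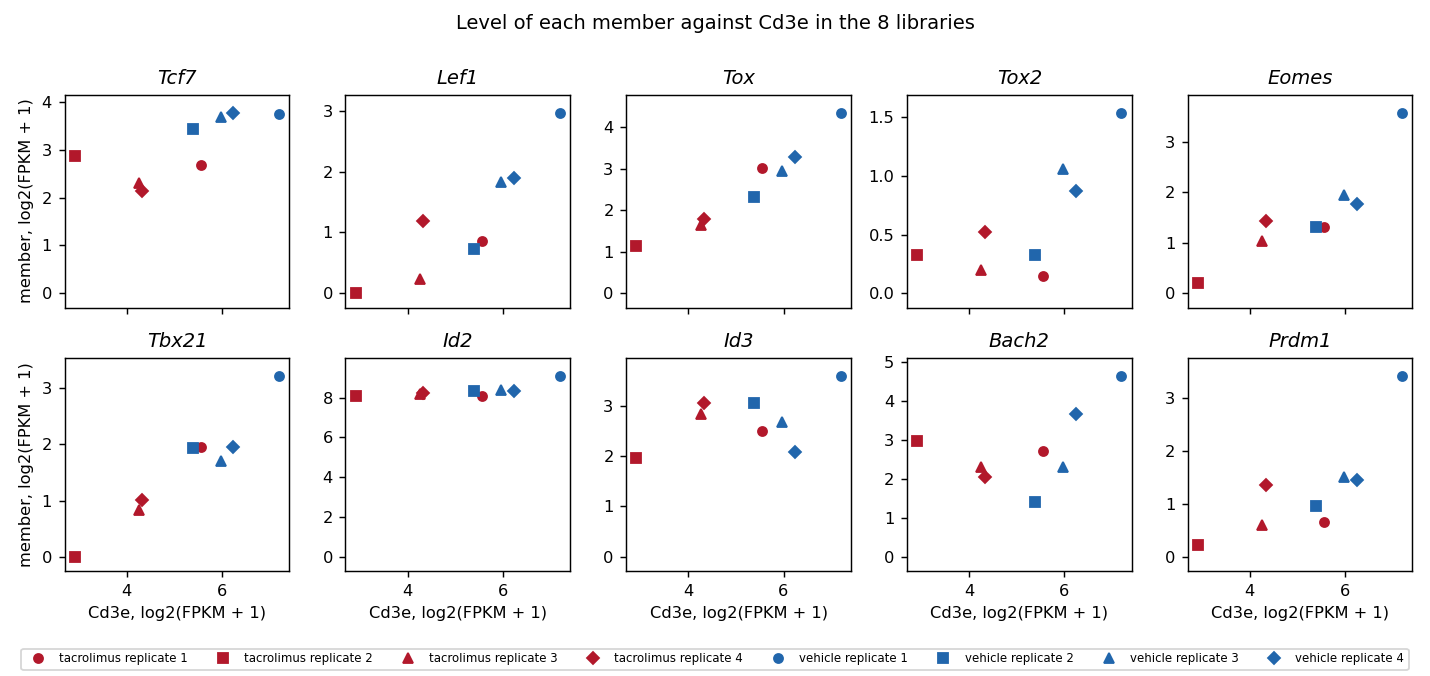
Level of each member (vertical axis) against Cd3e (horizontal axis), both as log2(FPKM + 1), with 1 panel per member. Red symbols are tacrolimus and blue symbols vehicle libraries. Tox and Tbx21 lie close to 1 line, with r of 0.97 each, while Tcf7 is lower in the 4 tacrolimus libraries over a range of Cd3e and Id2 is nearly flat outside vehicle replicate 1.

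With the Cd3e level as a covariate in the limma fit, the treatment difference of Tcf7 was -1.17 (SE 0.32, unadjusted p = 0.00544, adjusted p = 0.272), about what it was without the covariate. The other members had differences between -0.11 (Id2) and 0.53 (Bach2), with Tox at 0.30 (SE 0.33), Eomes at 0.19, Tbx21 at 0.21, Lef1 at -0.09 and Prdm1 at -0.01. Tcf7 was the member with an unadjusted p under 0.05, 1 of 9 and lower, against 15.4% of all genes lower in that fit. Cd3e is itself measured with error and differs between the groups, and the covariate fit and the ratio give opposite signs for Tcf7.

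The genes most like each tested member over the 8 libraries were named by the highest Pearson r of log2(FPKM + 1), as a description. For Tcf7 they were Dapl1 (r 0.95), Nfix (0.94) and Jazf1 (0.94). For Tox they were Acp5, Sept1 and Atp8b4 (0.99 each), and for Tbx21 Penk, Sh2d2a and Il2rb, a chain of the interleukin 2 and 15 receptors (0.99 each). Eomes was most like Cd5, a T cell surface receptor, Napsa and the chemokine gene Ccl5 (0.99 each). Lef1 was most like Fam169b (0.99), Dennd1c (0.98) and Tmem267 (0.98), and Prdm1 like the heat shock gene Hspa1a (0.99), Ier5 (0.98) and Cd7 (0.98). Id2 was most like Pik3r5, Riok1 and Gpr160 (0.98 each), Id3 like Plekho1 (0.98), Exosc8 (0.96) and Ptpn12 (0.95), and Bach2 like Zzef1 (0.98), Tnik (0.93) and Rfxank (0.93). With 8 libraries and 13032 genes, high values of r are common.

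As deposited, no gene of 5 further lists passed the adjusted threshold in either direction. Relative to Cd3e, 2 other regulators passed it with higher values, Foxo1 (2.49, limma adjusted p = 0.0428) and Rora (2.40, limma adjusted p = 0.0498), in the fit that called 5.68% of all genes higher. Of 31 other regulators of CD8 T cell fate, 28 were tested and 23 had a lower mean, where 75.7% of all genes did. Their median log2 difference was -0.51 beside -0.19 for all genes. The lists were counted as deposited only, while the share over all genes fell to 49.2% after median-of-ratios scaling. Klf2, a factor of quiescent T cells, averaged 30.6 ± 7.23 FPKM (SD, n = 4, as for the genes that follow, tacrolimus first) against 64.1 ± 13.9 (limma adjusted p = 0.179). Nr4a1, induced by receptor signaling, was at 50.2 ± 9.34 and 88.1 ± 15.7 FPKM, and the lymphoid factor Ikzf1 at 2.68 ± 0.68 and 9.19 ± 5.25 FPKM. Of 18 paralogs and partners of the members 14 were tested, 13 had a lower mean and the median was -0.25. Tox4 was at 26.4 ± 5.04 and 38.1 ± 0.96 FPKM, Mafk at 13.7 ± 2.71 and 19.8 ± 5.97, and the E protein gene Tcf3 at 16.3 ± 3.30 and 20.3 ± 2.08. The paralogs Tox3, Id1 and Id4, and Zfp683, a relative of Prdm1, did not pass the minimum.

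In the 3 lists of genes linked to the members, every tested gene had a lower mean. Over all genes tested, that share was 75.7% as deposited. It was 49.2% after median-of-ratios scaling, under which these lists were not counted. All 11 tested progenitor and memory genes linked to Tcf7 and Lef1 had a lower mean (median -1.37), with the chemokine Xcl1 at 8.47 ± 3.46 and 40.7 ± 23.4 FPKM, Dapl1 at 0.93 ± 0.37 and 3.05 ± 1.0, and the integrin Itgb7 at 3.43 ± 1.22 and 21.0 ± 19.8. The 14 tested effector genes linked to Tbx21, Eomes and Prdm1 also had a lower mean (median -1.64). Il18rap was at 0.28 ± 0.22 and 2.48 ± 1.68 FPKM, and it reached the minimum of 1 FPKM in the vehicle libraries only, so that the filter fixed its direction. The other named genes were the perforin gene Prf1, at 6.98 ± 5.78 and 24.5 ± 12.8, and Ctsw, at 10.8 ± 7.25 and 40.0 ± 27.3. All 13 tested exhaustion genes linked to Tox had a lower mean (median -1.16). The receptor Cd160 was at 1.5025 ± 0.74 and 8.52 ± 7.10 FPKM, Pdcd1 (PD-1) at 8.92 ± 7.25 and 39.8 ± 31.0, and Ctla4 at 11.2 ± 7.59 and 65.0 ± 71.8. Relative to Cd3e, the median differences of these 3 lists were 0.57, 0.29 and 0.77, all below the median of 1.74 for all genes. On that scale 3 of 11, 0 of 14 and 2 of 13 had a lower mean, against 0.2% of all genes.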

How the data were processed

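Libraries of 8 mice were used, 4 per group, with groups and replicate numbers from the titles. The deposited files name no unit. It was inferred to be FPKM as computed by the authors: values are not whole, a library sums to 890182 to 926808, and low values fall at steps that shrink with transcript length. Those steps (within 0.15 of a whole multiple for 87.1 to 88.6% of low values in genes with 1 transcript of 500 to 1500 bases, against 30% by even spread) give an estimated 16000000 to 19600000 fragments per library. Per the submitters' processing notes, HISAT2 2.1.0, RSEM 1.3.1, DESeq2 1.24.0 and GRCm38.p6 were used, with no role or order named.

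Symbols came from a supplied table of gene identifiers and names, and coordinates from GENCODE M21 (GRCm38). Genes at 1 FPKM or more in at least 4 libraries were tested on log2(FPKM + 1), which understates changes of low genes, with limma 3.58.1 in R 4.3.3 (eBayes with trend, treatment as the only term, Benjamini-Hochberg over all genes tested, threshold 0.05, two-sided). For the Cd3e-relative fit, log2(Cd3e + 1) was subtracted per library. Exact two-sided permutation tests used all 70 assignments (smallest p 0.0286) or, for correlations, all 40320 orders. Those between groups, on the 10 members and Cd3e under up to 3 scales, were not adjusted. Those for correlations were adjusted over 13031 genes.

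Members and lists were chosen with earlier results of these data known. The members were all named. Of each list the 3 genes with the smallest unadjusted p were named, and the 3 genes most like each member. At most 1.69% of values were identical between any pair of libraries. Alternatives were other pseudocounts, filters, scalings, variance estimates, library weights, reference genes, a Cd3e covariate, the replicate number as a block, and libraries left out.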

Additional observations from a re-analysis of the deposited data

Results flagged for a closer look

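Vehicle replicate 1 was far from the other 3 vehicle libraries in 4 members: Eomes at 11.01 FPKM, Tbx21 at 8.33, Id2 at 543.4 and Prdm1 at 9.61. Its Prdm1 level was also high relative to Cd3e, at 6.58% of the Cd3e FPKM. This library had the highest summed T cell, macrophage and neutrophil markers (1963, 1757 and 349 FPKM). Tacrolimus replicate 2 was far from the other 3 tacrolimus libraries in Tcf7, at 96.94% of the Cd3e FPKM, and in Bach2, at 104.44%. It had the lowest summed T cell markers (66.0 FPKM) and the lowest macrophage markers (232 FPKM), while its melanoma markers (26393 FPKM) lay within the range of the others. Of 40 groups of 4 values examined, 7 held such a library. These groups share the same 8 libraries and hold correlated genes, so the count cannot be set against a rate expected by chance.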

How the results depend on the processing

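No member passed an adjusted p of 0.05 in limma as deposited, except Tox with the replicate block (difference -1.33, adjusted p = 0.0344). All 9 kept a lower mean under the 3 scalings and under each other pseudocount and filter, although the pseudocount moved the size of the scarce members: Lef1 from -1.29 to -2.53 with 0.1 and to -0.51 with 5. Bach2 turned to 0.056 without vehicle replicate 1 (-1.02 to 0.056 with each library left out), and Id3 (-0.52 to -0.021 with each library left out) to 0.19 without vehicle replicate 1 and tacrolimus replicate 2 together, a setting chosen after seeing the data, as was leaving variances unpooled. With Cd3e as a covariate 5 members turned: Tox 0.30, Eomes 0.19, Tbx21 0.21, Id3 0.23 and Bach2 0.53. Relative to Cd3e, a pseudocount of 0.1 turned Lef1 to -0.53 and Tbx21 to -0.30, and leaving out those 2 libraries turned Tcf7 to -0.10 (0.20 to 1.14 with each library left out). The cause of these turns was not tested.

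The number of genes called as deposited was 0 (2056 lower and 208 higher at an unadjusted p under 0.05). It was 121 with the replicate block, 0 to 1 with each library left out, and 2 without vehicle replicate 1 and tacrolimus replicate 2. The labels give same-numbered libraries only a shared number, and whether they were paired is not given. Their deviations from the group means correlated at 0.22, 0.28, -0.02 and -0.02 for replicates 1 to 4. Tacrolimus replicates 1 and 2 correlated best with the vehicle replicates of the same number, whereas tacrolimus replicates 3 and 4 correlated best with vehicle replicates 1 and 2. The number of genes called relative to Cd3e was 740 and ran from 51 to 12374 with each library left out. It was 11006 with a pseudocount of 5, 24277 with no filter, 5731 with robust eBayes, 12900 with library weights, 12627 with the replicate block, 55 relative to Cd8a, 100 relative to the mean of Cd3d, Cd3e, Cd3g and Cd247, 101 relative to the mean of the T cell markers, 121 without vehicle replicate 1 and tacrolimus replicate 2, and 0 with variances not pooled. Calls of members relative to Cd3e gained under these settings (19 over all of them) share that instability. Median-of-ratios scaling moved the median of all genes by 0.20 and upper-quartile scaling by 0.20, and split genes at an unadjusted p under 0.05 into 735 lower and 741 higher, and 778 and 723, against 2056 and 208 as deposited. Depth limits Tox2, Lef1, Eomes, Tbx21 and Prdm1, with estimates under 20 fragments in at least 1 library each, and covers counting error only.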
